A study of Arabidopsis thaliana with 24 samples.

Results

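FLC and the MAF genes are the 6 MADS-box repressors of flowering that form the FLC clade of Arabidopsis thaliana. They were chosen by locus: FLC (AT5G10140), MAF1 (AT1G77080), MAF2 (AT5G65050), MAF3 (AT5G65060), MAF4 (AT5G65070) and MAF5 (AT5G65080), 6 of the 33597 loci in the table of counts. The clade was picked because FLC was nearly lost in the mutant lec1-1, so its values in lec1-1, and FLC in every comparison with Ws, are a description without a test. Seeds were taken from 3 wild types and from mutants of 4 regulators of seed maturation, at 15, 17 and 21 days after flowering (DAF). The wild types were Ws (Wassilewskija), Ler and Col-0. Each mutant was compared with the wild type it was made in: lec1-1 and lec2-1 with Ws, both abi3 alleles (abi3-5 and abi3-1) with Ler, and fus3-3 with Col-0. The series design gives lec1-1, fus3-3 and abi3-5 as making seeds that die on drying, and lec2-1 and abi3-1 as tolerant like their wild types. For abi3-1 the sample labels differ, giving intolerant seeds, and the design was used. The labels name no cold period and no other treatment of the plants.

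Each genotype and day was 1 library of RNA pooled before amplification, so there is no replicate library within a day and the days served as repeats. The lec2-1 columns of 15 and 17 DAF held identical values and were counted as 1 library, which left 23 libraries. Library totals ran from 1670355 to 6531673 counts. Levels are normalized CPM, which are counts corrected for the library total and for a scaling factor per library (0.486 to 1.92). The factors went with genotype, at 0.486 to 1.06 in the wild types and 1.44 to 1.92 in lec1-1, fus3-3 and abi3-5. Summed levels are therefore not shares of a library. Storage protein transcripts, which define maturing embryos, were detected in every library, while LEC1 and LEC2 had 0 to 4 counts in any library, so the lesions in these genes could not be checked. ABI3 had 77 to 252 counts in the abi3-5 libraries and FUS3 had 4 to 168 in those of fus3-3, so transcripts of both mutant loci were present. The Col-0 library labelled 17 DAF had its highest correlation across 16085 genes with Ws and Ler at 21 DAF (Pearson r = 0.933 and 0.930) and lower values at 17 DAF (0.860 and 0.745). The one labelled 21 DAF was most like Ws at 17 DAF (r = 0.910) and Ler at 15 DAF (r = 0.875), and less like Ws and Ler at 21 DAF (0.808 and 0.828). Results that rest on these libraries are given with and without them, the values without them leaving the library of 15 DAF as the only one of Col-0.

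FLC is a transcription factor that blocks flowering by binding the floral activator genes FT and SOC1, often together with the related MADS-box protein SVP. Prolonged cold silences FLC through Polycomb proteins, and the gene is switched on again during embryo development so that each generation starts with flowering repressed. LEC1, an NF-Y subunit that acts on CCAAT boxes, and the B3 proteins LEC2, FUS3 and ABI3, which bind the RY element, are seed regulators, and the related B3 proteins VAL1 and VAL2 bind RY elements in the first intron of FLC during its silencing. In seeds FLC is also known to affect germination, through CYP707A2, whose enzyme breaks down abscisic acid. MAF1, also called FLM, represses flowering with SVP in response to ambient temperature, and MAF2 delays the response to short cold. MAF3 and MAF4 are repressors that act beside FLC, and MAF5 is a member of the clade whose transcript is known to rise after cold.

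FLC lies on chromosome 5 at positions 3173382 to 3179448, on the minus strand, in TAIR10.1. MAF2, MAF3, MAF4 and MAF5 stand in a row on the plus strand of the same chromosome between 25982254 and 26002619, and MAF1 is on chromosome 1 at 28955483 to 28960234. The RY element was searched as CATGCA on both strands, where it reads TGCATG on the other one. All 6 genes held at least 1 RY match within their first 1000 bases, as did 24.5% of 27444 protein-coding genes. The matches are shown because LEC2, FUS3 and ABI3, whose genes are mutated in lec2-1, fus3-3 and the abi3 alleles, bind this element. They were read from the reference genome, and the sequences of Ws and Ler were not examined. Each line gives 30 bases of the RefSeq sequence of TAIR10.1 on the gene's own strand, 5′ to 3′, with the RY letters in capitals.
FLC first match, chr5:3178849-3178878, minus strand: aaaaaaaaattcTGCATGgatttcattatt
FLC second match, chr5:3178816-3178845, minus strand: ttggaaaaaaatTGCATGtcattcacgatt
MAF1, chr1:28956165-28956194, plus strand: gaaatttaatatTGCATGttattcaagaaa
MAF2, chr5:25982879-25982908, plus strand: aaattttaatatTGCATGtgattcaagaat
MAF3, chr5:25987992-25988021, plus strand: aaaatttaatatTGCATGcgattcaagaat
MAF4, chr5:25992785-25992814, plus strand: aaaatattatttCATGCActtggagagatt
MAF5, chr5:25998080-25998109, plus strand: ctttttttcctTGCATGCActtcaagagat

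The FLC matches began at bases 583 and 616 from the annotated start of the gene, 33 bases apart, and lay in an intron in 4 of 4 annotated transcripts. In the MAF genes the match began between bases 588 and 696. It was intronic in all annotated transcripts that span it for MAF3, MAF4 and MAF5, in 4 of 5 for MAF2 and in 6 of 10 for MAF1. MAF5 alone had overlapping matches on both strands, written as TGCATGCA. The genes are paralogs, so their matches are not independent of each other. In the 250 bases before the start none of the 6 genes had an RY match, which 8.43% of 27443 genes had. The CCAAT box was found there 2 times in MAF1, once in MAF2 and in MAF3, and not in FLC, MAF4 or MAF5, while 46% of genes held at least 1 on either strand.

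FLC was found in all wild-type libraries and was all but absent in lec1-1. It was lower in lec2-1 than in Ws, and lower in fus3-3 than in Col-0. The fus3-3 range overlapped those of Ws and Ler. In Ws the FLC level was 21.0, 13.0 and 27.9 normalized CPM at 15, 17 and 21 DAF, from 34, 20 and 101 counts. In lec1-1 it was 0, 0.222 and 0, from 0, 1 and 0 counts, and the counts of 0 allow levels of up to 0.445 at 15 DAF and 0.687 at 21 DAF. In lec2-1 the level was 1.92 in the library of 15 and 17 DAF and 2.79 at 21 DAF, from 6 and 15 counts. Every lec2-1 library lay below every Ws library and above every lec1-1 library. Over the 3 Ws libraries there were 155 counts against 21 in lec2-1 and 1 in lec1-1. These values chose the clade or share the Ws libraries with those that did, so they are a description.

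In Ler the FLC level was 66.9 at 15 DAF, 6.52 at 17 DAF and 33.3 at 21 DAF, with 170, 8 and 67 counts. In abi3-5 it was 69.8, 55.4 and 5.06 on the same days, and in abi3-1 it was 29.8, 25.4 and 30.7. All 3 Ler genotypes overlapped, and the widest spread over days was that of abi3-5, with a mean of 43.4 ± 34.0 (SD, n = 3). In Col-0 FLC stood at 79.1, 78.4 and 49.7, the highest mean of the 8 genotypes at 69.1 ± 16.8 (SD, n = 3). In fus3-3 it stood at 3.79, 13.1 and 14.0, with a mean of 10.3 ± 5.63 (SD, n = 3), and every fus3-3 library was below every Col-0 library. The order of the means was Col-0, abi3-5, Ler, abi3-1, Ws, fus3-3, lec2-1 and lec1-1. Neighbours in that order overlapped as far as fus3-3, and the only neighbours with separate ranges were fus3-3 and lec2-1, and lec2-1 and lec1-1. The count table has no row for AT5G01675, an antisense locus that shares 68.1% of the FLC exon bases, and the labels do not say whether strand was used, so sense and antisense reads of FLC cannot be told apart.

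**Figure D1:**
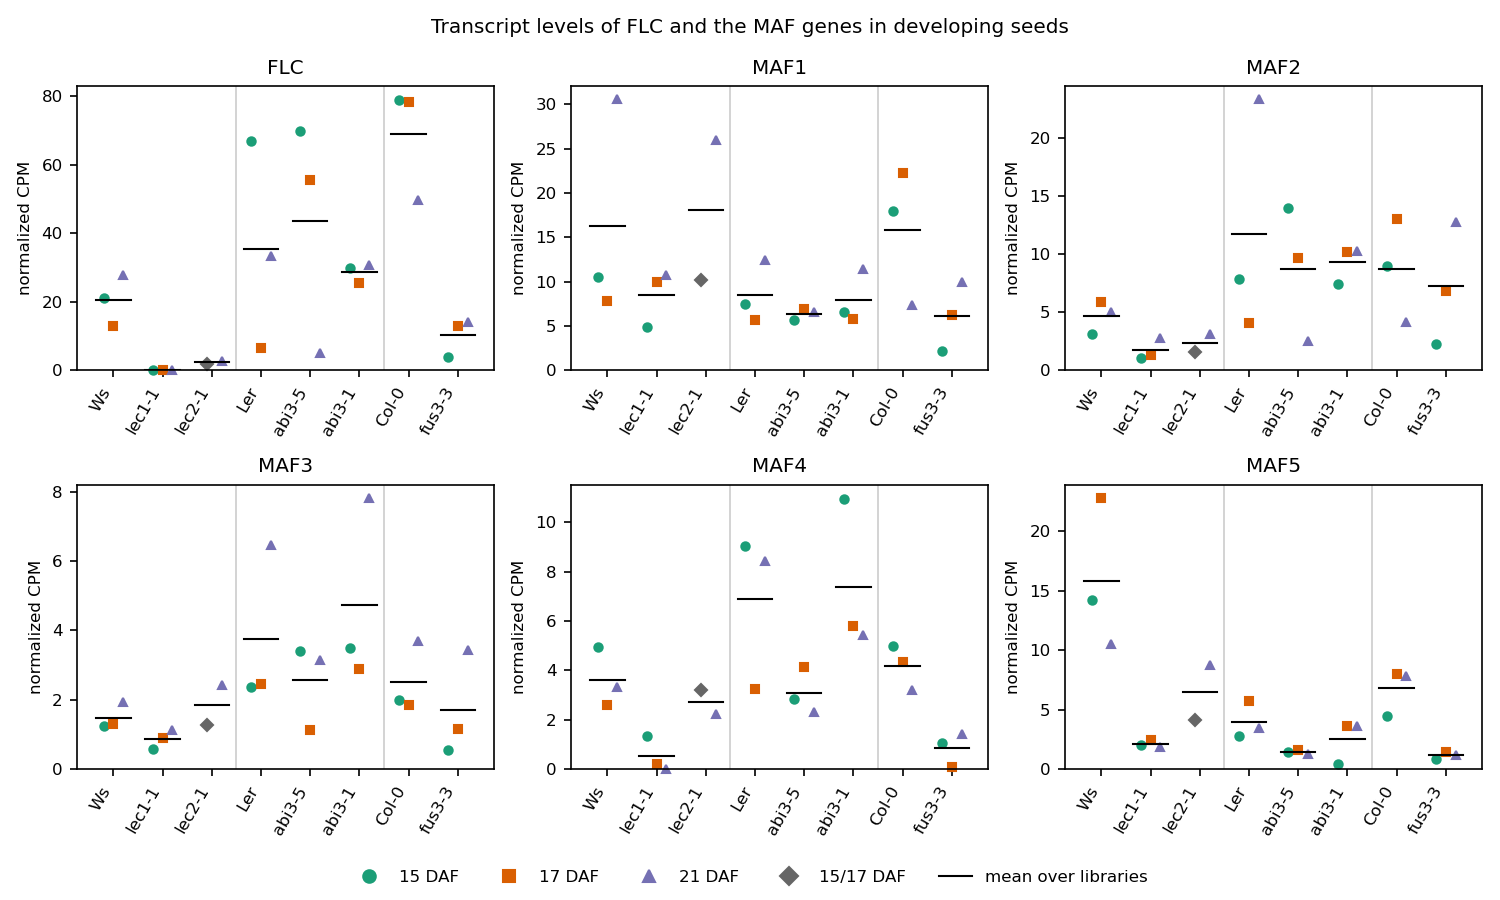
Level of each member in normalized CPM (y axis, linear, from 0) in the 23 libraries by genotype (x axis), with symbols for the day and a black line for the mean over the libraries of a genotype. FLC is at 0 to 0.222 in lec1-1 and at 1.92 to 2.79 in lec2-1, while MAF5 is at 10.5 to 22.7 in Ws and below 9 in all other genotypes.

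Per kb of transcript FLC was the most abundant member, with a mean over the 9 wild-type libraries of 41.9 normalized CPM per kb. MAF1 followed at 12.4, MAF5 at 11.2, MAF2 at 8.04, MAF4 at 4.90 and MAF3 at 2.24 on the same scale. The lengths are medians over annotated transcripts, and the isoforms used in seeds were not measured. In Ws the level per kb of MAF5, 20.0 ± 7.94 (SD, n = 3), was close to that of FLC, 20.7 ± 7.49 (SD, n = 3). In Col-0 FLC stood at 69.3 ± 16.8 and MAF5 at 8.59 ± 2.51 per kb (SD, n = 3). MAF3 rests on 168 counts in all libraries together, against 1708 for FLC, so its values are the least precise. Stretches of 35 bases shared with another member made up 7.32% of MAF3, mostly shared with MAF2, 2.67% of MAF2, under 1% of MAF1, MAF4 and MAF5, and none of FLC, so a part of the reads of MAF2 and MAF3 could have been given to the wrong gene.

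**Figure D2:**
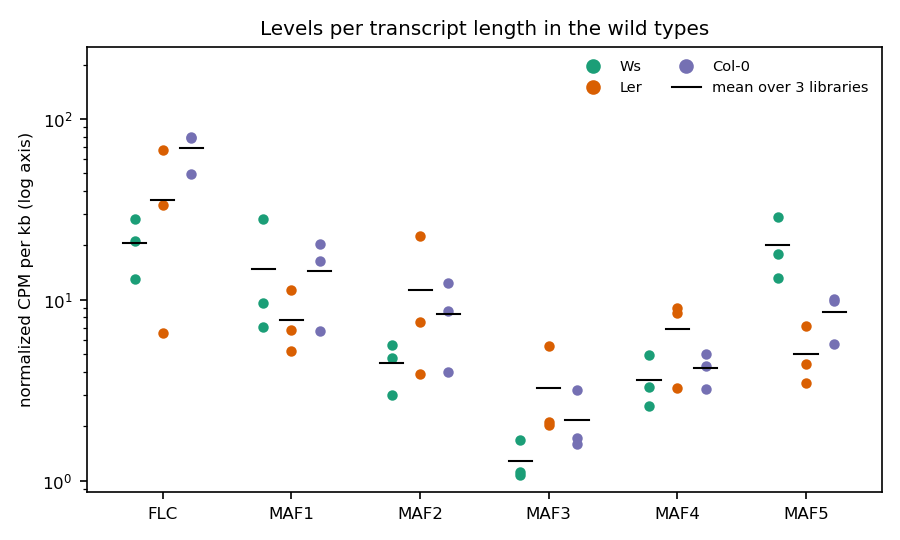
Levels of the members in normalized CPM per kb of median transcript length (y axis, log scale) in the 3 libraries of each wild type, with points for libraries and black lines for means. FLC in Col-0 (69.3 on average) is the highest value, and in Ws the points of FLC and MAF5 overlap.

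The comparison of fus3-3 with Col-0 asks how the clade differs in a mutant of FUS3, a B3 activator of the seed programme. FLC, MAF1, MAF4 and MAF5 fell, and MAF2 and MAF3 were not called. MAF5 was at 4.50, 8.03 and 7.82 normalized CPM in Col-0 and at 0.867, 1.49 and 1.21 in fus3-3 at 15, 17 and 21 DAF. MAF4 was at 5.00, 4.32 and 3.22 in Col-0 and at 1.08, 0.106 and 1.42 in fus3-3. Neither gene overlapped between the genotypes, although MAF4 rests on 24 and 18 counts. MAF1, the ambient temperature repressor, was at 18.0, 22.2 and 7.36 in Col-0 and at 2.17, 6.27 and 9.92 in fus3-3, so that its ranges overlapped through the Col-0 library labelled 21 DAF.

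On the log2 scale the fitted change in fus3-3 was -2.68 for FLC (SE 0.76, adjusted p = 0.0202, lower on 3 of 3 days), from edgeR's quasi-likelihood test with Benjamini-Hochberg adjustment over 16085 genes. MAF5 fell by 2.48 (SE 0.49, adjusted p = 0.00261, lower on 3 of 3 days). MAF4 fell by 2.38 (SE 0.71, adjusted p = 0.0254, lower on 3 of 3 days), and MAF1 fell by 1.63 (SE 0.52, adjusted p = 0.0351, lower on 2 of 3 days). These day counts use the deposited labels. With the Col-0 libraries labelled 17 and 21 DAF exchanged, that of MAF1 alone would change, to 3 of 3. The change was -0.43 for MAF2 (SE 0.67, adjusted p = 0.698) and -0.70 for MAF3 (SE 0.55, adjusted p = 0.390). MAF2 and MAF3 were at -0.82 and -0.78 without both Col-0 libraries labelled 17 and 21 DAF, again not called. In this comparison 19% of all tested genes were called and 8.67% were called lower, against 4 of the 6 members called lower. The median change of the members was -2.01 and that of all tested genes was 0.02.

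The call of MAF5 held when each library was left out in turn, and its change stayed between -2.55 and -2.36. FLC was not called without the fus3-3 library of 15 DAF (-2.14, adjusted p = 0.0727) or of 17 DAF (-3.02, adjusted p = 0.0601). MAF1 was not called without either of these (-1.25 and -1.81) or without the Col-0 library labelled 15 or 17 DAF (-1.26 and -1.28), and MAF4 was not called without either of these fus3-3 libraries (-2.36 and -1.81) or without the Col-0 library labelled 17 or 21 DAF (-2.14 and -2.50). With 15 DAF as the single Col-0 library, the ones labelled 17 and 21 DAF being left out, MAF1 alone was called, and FLC stood at -2.63 (adjusted p = 0.166) and MAF5 at -2.31 (adjusted p = 0.107). Scaled by library totals alone, which moves the median of all tested genes from 0.02 to 1.14, no member was called. FLC was then at -1.76, MAF5 at -1.35, and MAF2 and MAF3 both at +0.43.

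Markers of the tissues also moved in fus3-3. Of 9 embryo maturation genes 8 fell, and their summed level was 71109 to 121997 normalized CPM in fus3-3 against 190966 to 1206933 in Col-0. EPR1, a gene of the endosperm, fell by 2.50 (SE 0.55, adjusted p = 0.00509), and the endosperm sum was 71.7 to 237 in fus3-3 and 773 to 1074 in Col-0, carried by EPR1, with the other 5 endosperm genes too low to be tested. Of 6 vegetative genes RBCS1A and LHCB1.3, both of photosynthesis, rose, and the vegetative sum was 1237 to 7239 against 154 to 1482. Of the 6 tested seed coat genes GL2 rose and TT10 fell. Neither of the 2 tested silique wall genes was called, and their list summed to 2.23 to 5.63 in fus3-3 and 1.24 to 10.5 in Col-0. Without both Col-0 libraries labelled 17 and 21 DAF, 3 of the 9 embryo maturation genes were called lower and no marker of the other lists was called, with EPR1 at -2.25 (adjusted p = 0.0966). The part of these shifts in the values of the FLC clade was not tested. RNA came from whole seeds, so fewer cells of a type and less RNA per cell cannot be told apart.

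abi3-5, which also loses much of the seed programme, was compared with Ler. None of the 6 members was called, where 7.99% of all tested genes were. FLC was at +0.29 (SE 0.73, adjusted p = 0.853), higher in abi3-5 on 2 days and lower at 21 DAF. MAF5 was the nearest to the threshold, with 2.75, 5.70 and 3.47 normalized CPM in Ler and 1.42, 1.60 and 1.26 in abi3-5. Its ranges did not overlap, but the change of -1.41 (SE 0.53) missed the threshold, with adjusted p = 0.109 in edgeR, and MAF4 was at -1.05 (adjusted p = 0.342). With library totals, which put the median of all tested genes at 1.49 in place of 0.05, all 6 members were above 0 and below that median except FLC at 1.65, and none was called. EPR1 fell by 2.07 here as well (SE 0.54, adjusted p = 0.0238), and 6 of 9 embryo maturation genes fell. The endosperm sum, with EPR1 its only tested gene, was 79.4 to 344 against 738 to 957 in Ler. Of the 6 vegetative genes PETE1, of photosynthesis, rose, and the vegetative sum was 2114 to 3284 in abi3-5 against 52.6 to 1032 in Ler, with a median change of 2.91. The part of these shifts in the values of the clade was not tested.

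The effect of fus3-3 was set against that of abi3-5 as an interaction over all 4 genotypes. None of the 6 members was called, where 0.28% of genes were. The difference for FLC was -2.97 (SE 1.05) with adjusted p = 0.378 by edgeR. The other 5 members were also below 0, from -0.17 for MAF2 to -1.33 for MAF4, and the median was -1.15 against 0.01 for all tested genes. Without both Col-0 libraries labelled 17 and 21 DAF the difference for FLC was again -2.97 (adjusted p = 0.609) and none was called. A difference between the mutants in their effect on FLC was therefore not shown after adjustment.

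abi3-1, a tolerant allele, was compared with Ler and gave no called member, where 0.00622% of tested genes, a single one, were called. FLC was at -0.25 (SE 0.74) and the other members lay between -0.71 for MAF5 and +0.36 for MAF3. Between the alleles, abi3-5 against abi3-1, none of the 6 was called while 8.29% of tested genes were. FLC was at +0.54 (SE 0.73, adjusted p = 0.695), and MAF4 was at -1.12 (SE 0.64, adjusted p = 0.301) without overlap of its ranges. lec2-1 against Ws was tested for the 5 MAF genes, of which none was called, with 1.88% of all tested genes called. MAF5 was at 14.2, 22.7 and 10.5 normalized CPM in Ws and at 4.15 and 8.74 in lec2-1, a change of -1.26 (SE 0.51, adjusted p = 0.364). FLC, not tested there, was at -3.07, and MAF1 at +0.03 (SE 0.56).

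**Figure D3:**
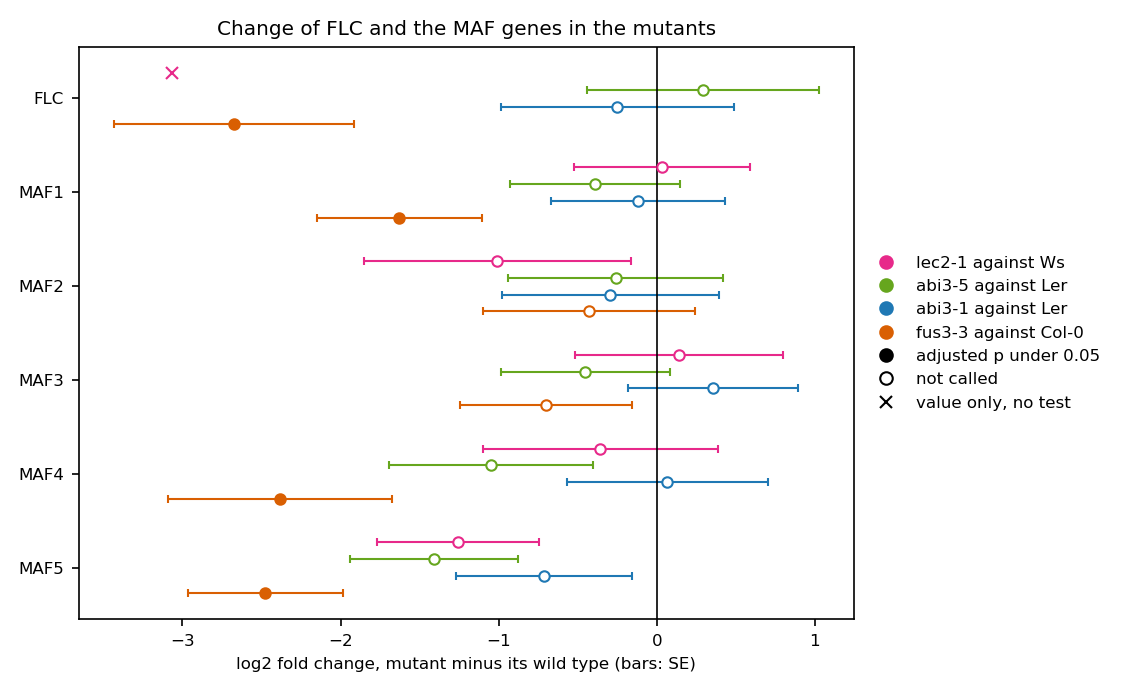
Fitted log2 fold change of each member in 4 mutants against their wild types (x axis), with bars for the SE, filled circles for adjusted p under 0.05, open circles for genes not called and a cross for FLC in lec2-1, which was not tested. Filled circles are seen for fus3-3 alone, at -2.68 for FLC, -1.63 for MAF1, -2.38 for MAF4 and -2.48 for MAF5.

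On the scaled levels the MAF genes were also lower in lec1-1 than in Ws, without a test. Scaling factors were 0.527 to 1.06 in Ws and 1.48 to 1.70 in lec1-1. Values with library totals alone were not computed for this comparison. The median fitted change of all tested genes was 0.03. The share of all genes that were lower, or had ranges without overlap, was not counted. MAF5 was at 2.08, 2.44 and 1.83 normalized CPM, all below the Ws values of 10.5 to 22.7, with a fitted change of -2.82. MAF4 was at 1.33, 0.222 and 0 in lec1-1 and at 4.95, 2.60 and 3.31 in Ws, a change of -2.71 on 10 and 24 counts. MAF2 was at -1.46 on 25 and 32 counts and MAF3 at -0.70 on 13 and 11, both without overlap of the scaled levels. MAF1 was at -0.88 with overlap. MAF3 thus had no fewer counts in lec1-1 than in Ws, and its lower level rests on the scaling. Beside these values the embryo maturation sum was 43955 to 96527 normalized CPM in lec1-1 against 125745 to 1184349 in Ws. The vegetative sum was 3491 to 10558 against 99.4 to 220, and the endosperm sum 163 to 222 against 555 to 1444. Of the 6 endosperm genes only EPR1 had enough counts to be tested, so that sum is a weak measure of the tissue. In lec2-1 the endosperm sum was 913 to 1094, the vegetative sum 1819 to 2787 and the embryo maturation sum 128286 to 426629. The part of these shifts in the levels of FLC and the MAF genes was not tested.

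The wild types were compared with each other. All counts were made against TAIR10, and how sequence differences between the wild types affect the counts was not tested. Between Ler and Col-0 none of the 6 members was called and 0.609% of genes were, with FLC at -1.01 (SE 0.73, adjusted p = 0.877). Between Ws and Ler none of 5 was called and 0.746% of genes were. MAF5 was higher in all Ws libraries than in all Ler libraries, with a change of +2.01 (SE 0.48) and adjusted p = 0.0579 in edgeR, and it was called by DESeq2 (+1.96, adjusted p = 0.0192) and by limma on the deposited values (+1.54, adjusted p = 0.0130). It was also called without the abi3-1 library of 15 DAF (adjusted p = 0.0331). Between Ws and Col-0 none of 5 was called and 0.56% of genes were, with MAF5 at +1.21 (SE 0.46, adjusted p = 0.355). On the library of 15 DAF as the only one of Col-0, MAF5 was at +1.37 in Ws (adjusted p = 0.622) and FLC at -0.99 in Ler (adjusted p = 1), and no member was called. FRI, the activator that raises FLC in many accessions, had 0 to 2 counts in each Ler, abi3-5 and abi3-1 library. It had 3 to 9 counts in Ws and 5 to 10 in Col-0, and the difference of Ws and Ler was not called (+2.64, SE 0.86, adjusted p = 0.229).

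Across all genotypes, 21 DAF was compared with 15 DAF. MAF3 rose by 1.03 (SE 0.34, adjusted p = 0.0329), which made 1 of 6 members called where 25.4% of tested genes were. MAF3 had its highest value at 21 DAF in every genotype except abi3-5. MAF1 was at +0.91 (SE 0.33, adjusted p = 0.0506), and it was highest at 21 DAF in every genotype except abi3-5 and Col-0. FLC was at -0.33 (SE 0.51, adjusted p = 0.663), and it was at 0.01 with library totals. The MAF3 call was lost without any 1 of 9 libraries, with adjusted p from 0.0507 to 0.0763: Ws, lec1-1, Ler, abi3-1, Col-0 and fus3-3 at 15 DAF, and Ler, abi3-1 and fus3-3 at 21 DAF. MAF1 was called without both Col-0 libraries labelled 17 and 21 DAF (+1.17, adjusted p = 0.00676), and with their days exchanged (+1.02, adjusted p = 0.00938).

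Members were also compared by their pattern over the 23 libraries, as a description. The gene most like FLC among 10446 other genes with a mean of at least 20 counts was MAF2 (AGL31), with Pearson r = 0.791 on log2(normalized CPM + 2). HGO, an enzyme of tyrosine breakdown, AT5G01720, AT1G04960 and GTG1, a membrane protein, followed at 0.775, 0.774, 0.770 and 0.754. FLC had r = 0.689 with MAF4, 0.476 with MAF3, 0.185 with MAF1 and 0.150 with MAF5. MAF2 and MAF3 had r = 0.637, and MAF1 and MAF5 had 0.512. MAF5 was near 0 with MAF2 (-0.06) and MAF3 (-0.05), although these genes are neighbours in the same cluster. Most like MAF1 were TAF13 (0.820), MRL7 (0.792) and AT5G16650 (0.789), and most like MAF2 were EXLA1 (0.845), RANBP1 (0.809) and GSTT1 (0.809). For MAF3 they were AT1G02020, AT5G44290 and AT3G51620 (0.791, 0.789 and 0.767), for MAF4 AT3G22750, RAB8C and AT4G27350 (0.857, 0.855 and 0.850), and for MAF5 AT4G31860, AT2G18570 and DMR6 (0.876, 0.867 and 0.856). All these values share libraries, genotypes and days.

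Regulators of FLC were counted in the same fits. In fus3-3, 4 of the 18 tested FLC activators fell and 1 rose, beside 8.67% of all tested genes called lower and 19% called in either direction. FES1, a partner of FRI, was at -1.45 (adjusted p = 0.0176), HUA2 at -1.74 (adjusted p = 0.0229), and VIP3, a subunit of the Paf1 complex, at +1.298 (adjusted p = 0.0147) in edgeR. The other 2 that fell, named after their values were seen, were ARP6 of the SWR1 chromatin complex (-1.46) and FRL1 (-1.27). The median of the list was -0.66, against 0.02 for all tested genes. None of the 9 tested autonomous pathway genes, which keep FLC low, was called, and their median was -0.66. Of 11 Polycomb and vernalization genes EMF1 fell (-1.44, adjusted p = 0.0387), with a list median of -0.04. All of these calls were lost without both Col-0 libraries labelled 17 and 21 DAF, with FES1 at -1.11 (adjusted p = 0.311), HUA2 at -1.07 (adjusted p = 0.506), VIP3 at +1.43 (adjusted p = 0.171) and EMF1 at -1.03 (adjusted p = 0.461). In that fit 2.71% of 16998 tested genes were called.

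Of the B3 factors in fus3-3, ABI3 fell (-1.60, adjusted p = 0.0286), 1 of 4 tested with a median of -0.98, while VAL1, VAL2 and FUS3 itself were not called. Of the 4 tested LEC1 type NF-Y genes L1L, the close relative of LEC1, fell (-5.98, SE 1.70, adjusted p = 0.0207), from 69, 0 and 20 counts in Col-0 to 0, 0 and 4 in fus3-3, with a list median of -1.40. Without both Col-0 libraries labelled 17 and 21 DAF the fall of L1L was still called (-6.01, adjusted p = 0.0474) and that of ABI3 was not (-1.01, adjusted p = 0.409). NF-YC2, another NF-Y subunit, was then called as well (-3.22, adjusted p = 0.0372). In abi3-5, abi3-1 and lec2-1 none of the FLC activators, autonomous pathway, Polycomb, B3 or NF-Y genes was called. In lec1-1 the genes were picked by the smallest adjusted p of their lists against Ws, so their values are a description. ABI3 was at -1.79, FUS3 at -3.69, FES1 at -1.42 and SUF4, another partner of FRI, at -1.26. VEL1, of the Polycomb and vernalization list, was at +1.99. The list medians were -1.13 for the B3 factors, -0.83 for the FLC activators and 0.10 for the Polycomb list, against 0.03 for all tested genes.

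SVP, the partner of FLC, and some other repressors outside the clade were higher in several mutants. SVP had 1 count in all Ws libraries together and 33 and 59 in lec2-1, a ratio of 73.3 (95% interval 12.8 to 2925, counting error only), and it rose (adjusted p = 0.00233). In fus3-3 SVP rose (adjusted p = 0.00586) with 25, 75 and 8 counts against 1 in Col-0, a ratio of 26.5 (4.66 to 1057). With the Col-0 library of 15 DAF alone, which had 0 counts, SVP was not called (adjusted p = 0.129). In lec1-1 it had 69, 83 and 52 counts, a ratio to Ws of 88.5 (15.7 to 3513). In the 3 Ler genotypes SVP had 0 to 2 counts in any library. In Col-0 it had at most 1. The vegetative genes also stood higher in the mutants with SVP, 3 of 6 called in lec2-1 and 2 of 6 in fus3-3, and their part in the SVP values was not tested.

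TEM1 and TEM2, repressors of FT, and TOE1, an AP2-type repressor of FT, gave related values. In fus3-3 TEM2 rose from 3 to 446 counts, a ratio of 36.5 (12.4 to 178, adjusted p = 0.00057), TEM1 rose by 3.89 (SE 0.69, adjusted p = 0.00153) and TOE1 by 3.94 (SE 0.82, adjusted p = 0.0037). Without both Col-0 libraries labelled 17 and 21 DAF, TEM2 and TEM1 were still called (adjusted p = 0.0363 and 0.0370) and TOE1 was not (+2.34, adjusted p = 0.242). In lec2-1 TEM1 rose with a count ratio of 61.7 (16.8 to 514), TEM2 with 40.6 (11.0 to 340) and TOE1 with 33.4 (8.98 to 281), at adjusted p = 0.00233, 0.00571 and 0.0124. In lec1-1 the ratios to Ws were 71.6 for TEM1 (19.7 to 594), 52.1 for TEM2 (14.3 to 432) and 23.2 for TOE1 (6.27 to 194), given without a test. In abi3-5 TOE1 rose with a ratio of 103 (18.4 to 4105, adjusted p = 0.000854) and TEM1 was at least 10.2-fold higher, against 3 counts over the Ler libraries, which held 0 (adjusted p = 0.00432). TEM2 had 5, 1 and 3 counts in abi3-5 and 4, 0 and 1 in Ler.

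The list of floral repressors outside the clade had 8 tested genes, among them MFT, which is not established as a repressor. Of these genes 3 rose and 2 fell in fus3-3, 2 rose and 2 fell in abi3-5, and 3 rose and none fell in lec2-1. Of all tested genes 19%, 7.99% and 1.88% were called in these comparisons. The list medians were -0.30, 0.23 and 0.33, so the list as a whole had no common direction. Those that fell were SMZ (-2.49) and SNZ (-3.98) in fus3-3, both AP2-type repressors and named after their values were seen (SNZ with adjusted p = 0.0615 without both Col-0 libraries labelled 17 and 21 DAF), and AGL18 (-1.53, adjusted p = 0.0098) and SMZ (-2.38) in abi3-5. CYP707A2 fell in abi3-5, from 40 counts in Ler to 3, a ratio of 29.1 (9.27 to 147, adjusted p = 0.0117), while FLC was not called there. In fus3-3 CYP707A2 was not called, with 13, 29 and 23 counts against 5, 63 and 8 in Col-0. These counts are not scaled, and the scaling factors were 1.44 to 1.69 in fus3-3 and 0.524 to 0.971 in Col-0. The 63 counts come from the Col-0 library labelled 17 DAF. Without both Col-0 libraries labelled 17 and 21 DAF the change of CYP707A2 was -0.42. Between abi3-5 and abi3-1 the same list gave TOE1 and TEM1 higher and SMZ and AGL18 lower, AGL18 being named after its value was seen, with CYP707A2 lower at 3 counts against 51. In abi3-1 against Ler and between the wild types no gene of any of these lists was called.

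**Figure D4:**
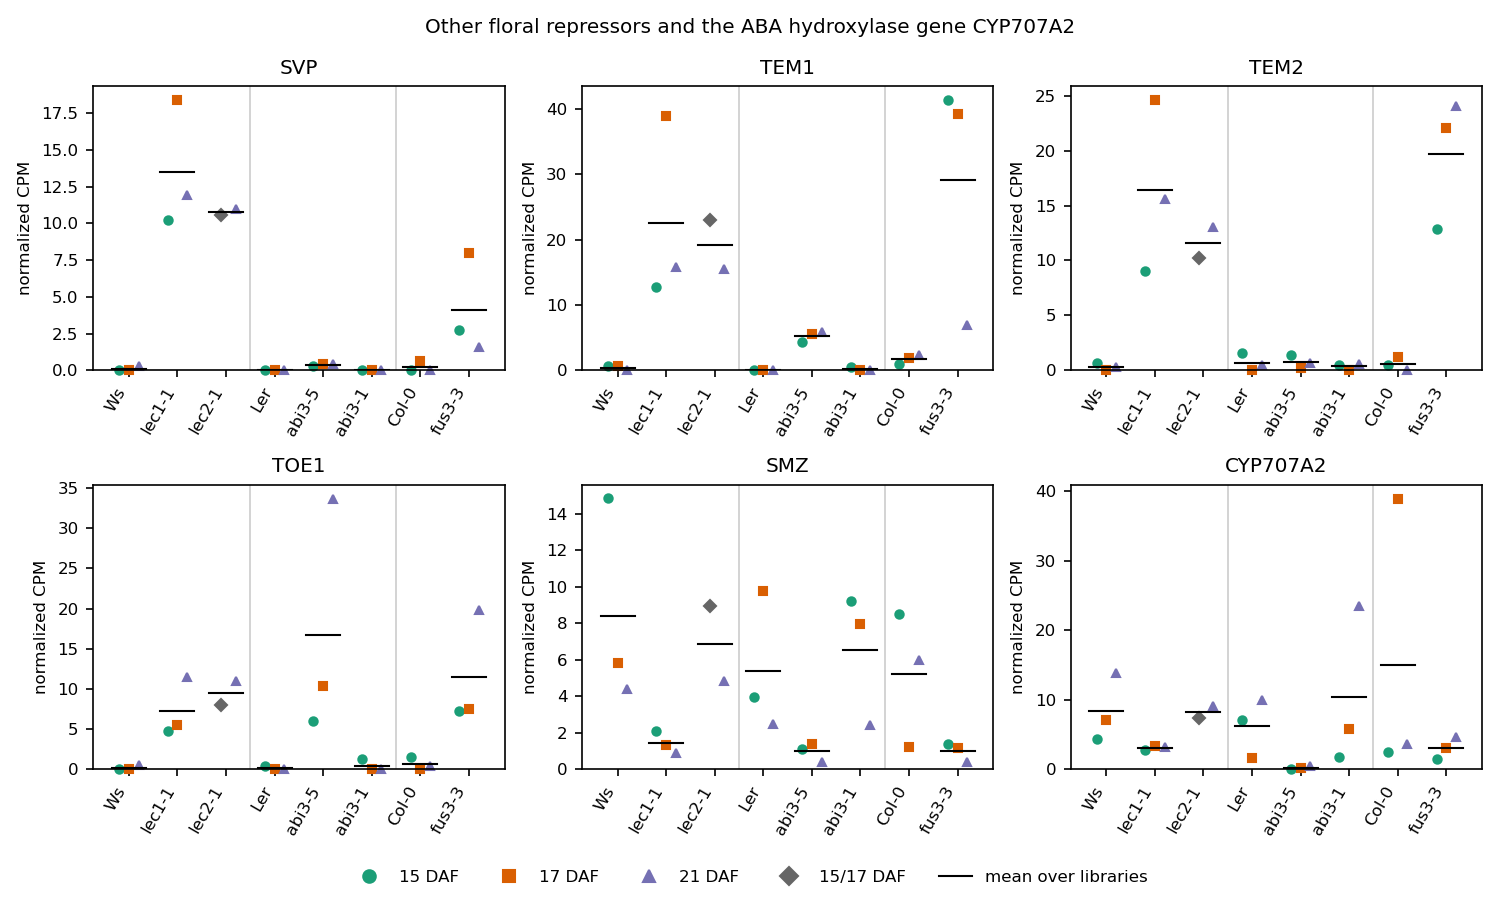
Levels in normalized CPM (y axis, linear, from 0) of SVP, TEM1, TEM2, TOE1, SMZ and CYP707A2 in the 23 libraries by genotype (x axis), with symbols for the day and black lines for means. SVP and TEM2 are near 0 except in lec1-1, lec2-1 and fus3-3, and TOE1 is also high in abi3-5, at up to 33.7.

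The targets through which FLC acts were low in these seeds. Of 12 targets and partners 3 passed the count filter, SVP, FT and CYP707A2. SOC1 had at most 11 counts in a library and was at 0 in Ws and abi3-1. FT had at most 15 counts in a library, in abi3-1 at 15 DAF, with 12 in Ler and 12 in lec1-1 on that day, and fell from 15 to 21 DAF over all genotypes (-3.89, SE 1.06, adjusted p = 0.0137). On the same axis FUS3 fell by 3.59 (adjusted p = 0.00197), L1L fell by 3.30 (adjusted p = 0.0112), and NF-YC2 fell by 1.71 (adjusted p = 0.0138). Of the 8 tested genes on the list of floral repressors outside the clade, AGL15, AGL18 and SMZ fell by 2.34, 0.78 and 1.21. SMZ was named after its value was seen. MFT, on that list but not established as a repressor, fell by 1.50. Of the 18 FLC activators SDG8, ELF7 and PIE1 rose by 1.00, 0.84 and 0.88, and of the 9 autonomous pathway genes FVE rose by 0.73. The share called among all tested genes was 25.4% in this comparison, so calls among the activators were no more frequent than the background. All the genes named here for 21 against 15 DAF were also called without both Col-0 libraries labelled 17 and 21 DAF.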

How the data were processed

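Barcoded SOLiD libraries were sequenced from Arabidopsis seed RNA after amplification by in vitro transcription, per the labels' protocols. The authors deposited raw counts per locus, made against TAIR10 per the submitters' processing notes. The aligner, counter and strand setting are not given in the sources used here. The deposited normalized signal, for which the same notes name edgeR, covers 22010 loci, and each column is the count column times a constant.

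Counts were fitted with edgeR 4.0.16 in R 4.3.3. Loci were filtered by filterByExpr (minimum count 10) and scaled by TMM, and a quasi-likelihood model with genotype and day as terms was fitted over 23 libraries, giving 16085 tested genes, all 6 members included. The shared lec2-1 library took an equal share of both day terms. Genes with Benjamini-Hochberg adjusted p under 0.05 were called. SEs are the fold change divided by the square root of F. They rest on the spread left between the libraries of a genotype after the common day term, pooled over all genotypes. With 1 library per genotype and day, that spread may be technical. The day term serves as a block, since each day label recurs across genotypes, but a shared label does not make libraries a pair. Alternatives used DESeq2 1.42.0 and limma 3.58.1 with a pseudocount of 2. Ratios of low counts carry exact conditional 95% intervals, and a count of 0 is replaced by a floor of 3. Scripts were tested on simulated counts.

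Named genes are all members, up to 3 called genes with the smallest adjusted p per list and comparison, and the genes most correlated with each member (5 for FLC and 3 for the others). The members, lists, rule and tests were chosen with earlier results of these data known. RefSeq annotation of TAIR10.1 gave names, lengths and sequences, and all member loci matched it.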

Additional observations from a re-analysis of the deposited data

Results flagged for a closer look

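MAF3 had daily differences of opposite sign in 2 mutants under the day labels as deposited. On the scale of log2(normalized CPM + 2) it was higher in abi3-1 than in Ler at 15, 17 and 21 DAF, with a mean daily difference of 0.232, and lower in fus3-3 than in Col-0 on the same days, with a mean of -0.333. Neither change was called by edgeR (+0.36, adjusted p = 1, and -0.70, adjusted p = 0.390), and the difference between the mutants was not tested. With the Col-0 libraries labelled 17 and 21 DAF exchanged, fus3-3 at 21 DAF (3.44 normalized CPM) would stand above its Col-0 library (1.85), so the sign in fus3-3 would not hold on every day. MAF3 had 3 to 17 counts in these libraries.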

How the results depend on the processing

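The 57 results on members were recomputed under 38 settings, which gave 2113 values. Of these 2058 stayed on their side of the threshold, 41 called values lost the call, 14 uncalled values gained it, no called value changed sign, and 81 uncalled values did. In fus3-3 against Col-0, 4 members were called, 0 with library totals, 0 with the ecotype fitted alone, 0 without all libraries of 17 DAF, 1 without all of 15 DAF, 1 when the Col-0 libraries labelled 17 and 21 DAF were dropped, and 1 to 4 when a library was left out. FLC kept its call in 31 of 38 settings, MAF1 in 28 of 38, MAF4 in 28 of 37 and MAF5 in 34 of 38. Without the replicate block, that is without the day term, 2 members were called, FLC and MAF5. In Ws against Ler 0 were called, and 1 (MAF5) with DESeq2, limma on deposited values or exchanged Col-0 days, and 0 to 1 when a library was left out. At 21 against 15 DAF 1 was called, 2 with upper quartile scaling, library totals, DESeq2, exchanged Col-0 days, without both Col-0 libraries labelled 17 and 21 DAF or with the lec2-1 library at 15 DAF, 0 without the count filter or without all libraries of 17 DAF, and 0 to 2 when a library was left out. The other 7 comparisons had 0 members called under every setting. The list genes without those Col-0 libraries were added after the data were seen. Settings that leave out libraries have fewer samples. Otherwise the cause was not tested. MAF3, MAF4 and MAF5 have few counts, and their depth limits small differences.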
